A study of Mus musculus with 16 samples.

Results

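The myostatin system and the muscle growth factors were followed as 10 genes chosen by symbol in a table of 26382 mouse genes: *Mstn*, *Gdf11*, *Inhba*, *Acvr2b*, *Fst*, *Igf1*, *Igf2*, *Igfbp5*, *Gdf15* and *Fgf21*. All 10 were present, and 9 had a mean of at least 0.5 normalized counts over the 16 libraries and were tested; *Fgf21* did not. Myostatin (*Mstn*) is a secreted ligand made by muscle fibres that restrains muscle growth. It signals, like activin A and GDF11, through type II activin receptors to SMAD proteins, and follistatin binds these ligands and blocks them. The insulin-like growth factors act the other way, driving protein synthesis and the growth of regenerating fibres through the IGF1 receptor, whereas GDF15 and FGF21 are circulating stress factors.

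Hamstring muscle came from female C57BL/6 mice injected at 8 to 10 weeks of age and killed at day 14, in a model of myositis induced by histidyl-tRNA synthetase (HRS). In 5 mice (m862 to m866) the left leg received recombinant HRS at 3 to 5 mg/mL and the right leg phosphate-buffered saline (PBS), giving 5 HRS legs and 5 contralateral PBS legs. Both legs of 2 mice given only PBS (m867 and m868) gave 4 PBS-only libraries, which share 2 animals, and 2 mice (m860 and m861) immunized with an HRS fusion protein with MBP at 2 to 3 mg/mL gave 1 library each with no leg named. No group carried a transgene or deletion, and no labelled group lacks the injection itself, so that uninjected muscle was not analysed here. The general protocol describes injection of both sides, whereas the sample titles name the substance given to each leg, and the groups follow the titles.

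Values are the deposited normalized counts, and the smallest common step of each library implied about 8595400 to 73939000 reads. The tissue label held in all 4 groups, since the summed level of 10 fibre markers lay between 46511 and 236870. One library stood apart: the HRS leg of m866 had a fibre marker sum of 198800, where the remaining HRS legs spanned 46511 to 115210. Its macrophage marker sum was 1275, below the 2888 to 6352 of m862 to m865 yet above 141 to 373 in the contralateral PBS legs, and its fibroblast marker sum of 2571 lay within the contralateral range of 1188 to 2929. The share of mitochondrial transcripts moved with this pattern, at 3.41% to 6.29% in HRS legs of m862 to m865, 5.94% and 6.98% in HRS-MBP, 11.1% in the m866 HRS leg and 9.69% to 13.1% in PBS legs. So did the library totals, at 726800 to 871400 normalized counts in HRS legs of m862 to m865 and HRS-MBP, 1162000 in the m866 HRS leg and 958740 to 1252400 in PBS legs. The part of the mitochondrial share in the results was not tested, and scaling to the same total is among the alternatives. Since the m866 leg stood apart, differences of HRS legs from both PBS groups are also given without it. The contralateral PBS leg of m866 also differed, with an adipocyte marker sum of 3330 against 227 to 530 in the other contralateral legs.

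The 250 bases upstream of the RefSeq start of the genes that moved furthest, with their motif matches, are given first so that the letters can be read beside the expression values. Entries were found for 9 of the 10 genes (all but *Fst*), 13 windows in all (RefSeq, GRCm38.p6), and those shown are *Mstn* (chr1:53061390-53061639, plus strand), *Igf1* (chr10:87860861-87861110, plus strand), *Igf2* (chr7:142657497-142657746, minus strand, 1 of 4 starts) and *Gdf15* (chr8:70632096-70632345, minus strand, 1 of 2 starts, inside the annotated gene) with the window before its other start (chr8:70632457-70632706). The *Igf1* and *Igf2* windows shown also lie inside their annotated genes. Capitals mark matches to CANNTG (the E-box), TATAAA (the TATA box), TGANTCA (the AP-1 motif), TGATGNAA (the amino acid response motif) and GGGGCGGGG (a GC box), searched on both strands.
Mstn: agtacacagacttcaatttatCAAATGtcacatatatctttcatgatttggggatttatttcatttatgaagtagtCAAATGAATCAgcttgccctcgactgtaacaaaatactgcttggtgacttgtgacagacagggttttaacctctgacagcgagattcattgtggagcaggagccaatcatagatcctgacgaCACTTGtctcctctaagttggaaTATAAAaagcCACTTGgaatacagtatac
Igf1: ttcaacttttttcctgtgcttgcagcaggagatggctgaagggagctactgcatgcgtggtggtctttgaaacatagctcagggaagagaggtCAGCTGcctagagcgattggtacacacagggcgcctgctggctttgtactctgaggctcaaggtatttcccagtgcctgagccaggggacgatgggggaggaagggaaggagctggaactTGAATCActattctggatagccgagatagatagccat
Igf2: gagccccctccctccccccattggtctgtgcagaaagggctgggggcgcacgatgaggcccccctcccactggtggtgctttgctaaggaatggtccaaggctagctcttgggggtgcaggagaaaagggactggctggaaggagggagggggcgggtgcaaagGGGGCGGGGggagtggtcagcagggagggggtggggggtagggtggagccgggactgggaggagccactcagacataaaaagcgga
Gdf15, inner start: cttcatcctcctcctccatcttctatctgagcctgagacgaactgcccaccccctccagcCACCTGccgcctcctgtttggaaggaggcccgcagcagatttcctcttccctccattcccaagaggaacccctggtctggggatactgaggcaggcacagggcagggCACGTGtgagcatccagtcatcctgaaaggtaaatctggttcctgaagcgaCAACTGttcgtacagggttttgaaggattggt
Gdf15, outer start: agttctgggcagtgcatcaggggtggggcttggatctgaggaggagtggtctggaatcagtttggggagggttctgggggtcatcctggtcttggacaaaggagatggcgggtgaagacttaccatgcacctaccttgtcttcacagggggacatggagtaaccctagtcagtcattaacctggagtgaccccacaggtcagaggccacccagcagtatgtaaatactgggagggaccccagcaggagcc

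The *Mstn* window holds 4 CANNTG matches, the E-box that myogenic factors bind, at 229, 174, 52 and 19 bases before the start. As many or more occur in 3.84% of the 32851 promoter windows of the same length, and at least 1 occurs in 66.2%. The second of these matches shares letters with a TGANTCA match at 170 bases, a motif in 6.75% of windows, and a TATAAA (12.4% of windows) lies at 29 bases. The *Igf1* window holds 1 CANNTG and 1 TGANTCA, the inner *Gdf15* window 3 CANNTG and the outer 0, and the *Igf2* window 1 GGGGCGGGG (10.4% of windows); of the 3 *Igf2* windows not shown, 1 holds 2 CANNTG and the others none of the capitalised motifs. TGATGNAA (3.45% of windows) was found in *Fgf21* among the 13 windows. CAGAC (42.2% of windows) and TTCNNNGAA (7.02%) were also searched, are not in capitals, and occur in the *Mstn* window 2 and 0 times. These matches describe letters and were not tested for binding.

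**Figure D1:**
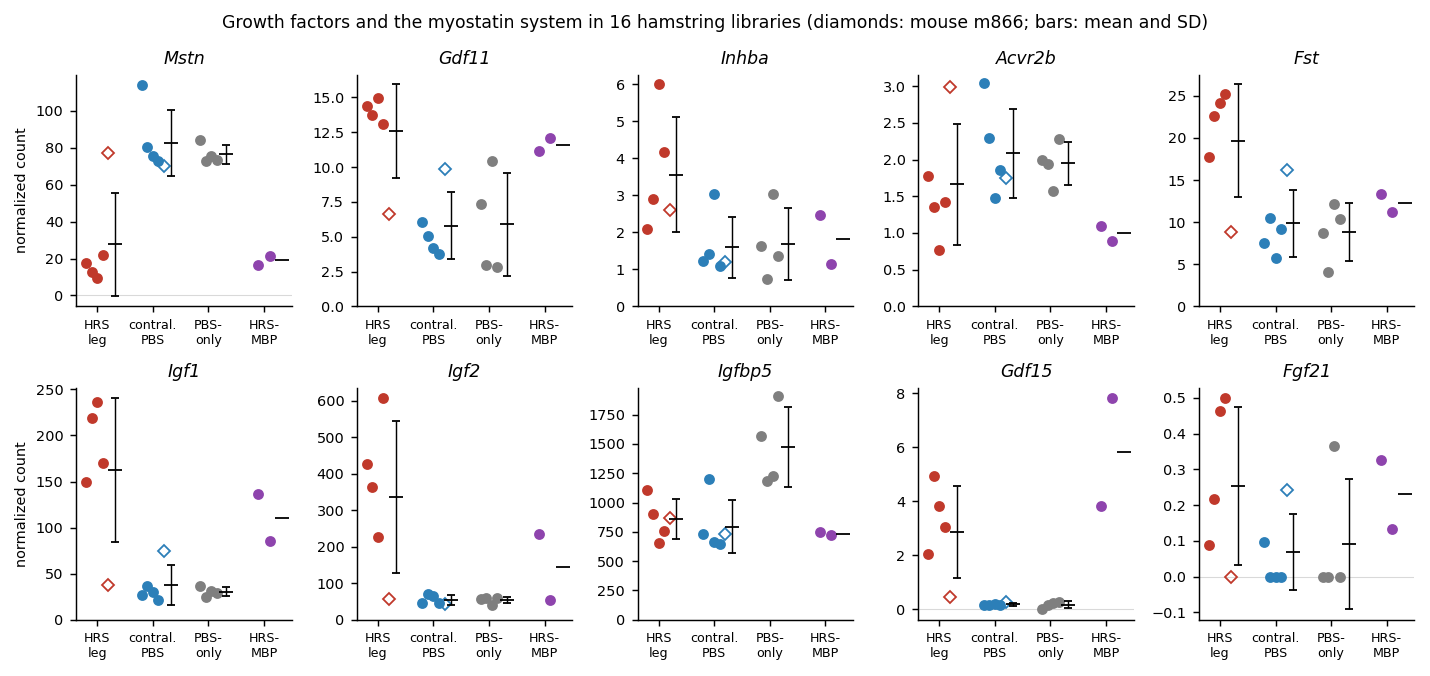
Normalized counts (vertical axes, linear) of the 10 genes in each library of the 4 groups. Points are libraries, open diamonds are the legs of m866, and bars give the mean and SD (mean only for the 2 HRS-MBP libraries). *Mstn* is low and *Igf1*, *Igf2* and *Gdf15* are high in 4 of the 5 HRS legs, with the m866 leg near the PBS legs.

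The first comparison asked how the HRS leg differed from the opposite PBS leg of the same animals, with main limma values that set the pairing aside. Of the 9 genes tested, 6 rose (*Gdf15*, *Igf2*, *Igf1*, *Gdf11*, *Fst* and *Inhba*) and 1 fell (*Mstn*) at an adjusted p below 0.05, while *Acvr2b* and *Igfbp5* did not pass. Across all 16414 genes tested, 35.1% rose and 25.9% fell. That split depended on scaling: with libraries scaled to the same total 7 of the 9 rose and 1 fell (54.6% and 12.6% of all genes), with quantile normalization 5 and 2 (25.3% and 39.6%), and with the median ratio 6 and 1 (31.6% and 31.2%). Past 2-fold as well, 4 of the 9 were higher and 1 was lower, against 16.9% and 6.27% of all genes. The median log2 difference was 0.96 over the 9 genes and 0.08 over all genes. With the mouse as a block, the limma adjusted p was 0.0191 for *Mstn*, 0.0112 for *Gdf15*, 0.0132 for *Igf2* and 0.0354 for *Igf1*. It was 0.0402 for *Gdf11*, 0.012 for *Inhba* and 0.0751 for *Fst*. In muscle as a whole, fewer cells of a type and less RNA per cell cannot be told apart.

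*Mstn* (ENSMUSG00000026100.6, chr1:53061640-53068079, plus strand) was the one gene of the 9 to fall between the legs. Its normalized count was 17.7, 12.7, 9.34, 22.1 and 77.1 in the HRS legs of m862, m863, m864, m865 and m866. In the contralateral legs of the same mice it was 114, 80.7, 75.4, 72.8 and 70.2. Thus 4 HRS legs lay far below every PBS leg, and the m866 leg lay inside the PBS range, so that the groups overlapped through that library alone.

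The mean of *Mstn* was 27.8 ± 28.0 (SD, n = 5) in HRS legs and 82.6 ± 18.0 (SD, n = 5) in contralateral legs, 2.98-fold lower. The log2 difference was -1.96 (95% interval -2.78 to -1.14, limma adjusted p = 0.000853). Without the HRS leg of m866 the ratio of means was 5.35-fold and the log2 difference -2.43. Within mice the HRS leg was 6.46-fold, 6.38-fold, 8.07-fold and 3.30-fold lower in m862 to m865, whereas in m866 the log2 difference was 0.13. The exact 2-sided sign-flip p over the 5 mice was 0.12, where 0.062 is the smallest that 5 pairs allow.

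PBS-only legs had *Mstn* at 84.2, 72.7, 75.7 and 73.4, with a mean of 76.5 ± 5.28 (SD, n = 4). The HRS-MBP libraries had 16.5 in m860 and 21.3 in m861, below all 9 PBS libraries. *Mstn* fell against PBS-only legs both in HRS legs (log2 difference -1.87, limma adjusted p = 0.00161) and in HRS-MBP libraries (-1.99, adjusted p = 0.00561). The latter call was lost without m860 (-1.81, adjusted p = 0.0552) and held without m861.

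Between the legs fibre markers fell, as *Mstn* did. Of the 10 fibre marker genes, 6 fell and 4 did not pass between the legs, where 25.9% of all genes fell, and without the m866 HRS leg 9 fell and 1 did not pass, where 30.2% did. Against PBS-only legs 2 of the 10 fell and 8 did not pass, both in HRS legs and in HRS-MBP. Of all genes, 22.6% and 23.8% fell there. Without the m866 HRS leg 9 fell in HRS legs against PBS-only legs, beside 27.4% of all genes. None of the 10 was at 0 in any group. Taken per 10000 units of the fibre marker sum of the same library, *Mstn* was 1.53, 1.55, 2.01, 2.79 and 3.88 in the HRS legs of m862 to m866. The contralateral legs had 4.82, 3.59, 3.58, 3.28 and 4.81, and the PBS-only legs 3.36 to 4.24. The HRS-MBP libraries lay at 2.14 and 2.77, below the 9 PBS libraries. *Mstn* relative to the fibre markers was thus lower in 4 HRS legs than in any PBS leg, and the m866 leg was within the PBS range. Within mice it was lower in the HRS leg in 5 of 5, m866 included (3.88 against 4.81). In m866 *Mstn* itself was the higher in the HRS leg (77.1 against 70.2), and the sign of the ratio rests on the fibre marker sum of its contralateral leg, 145780, below the 178340 to 236870 of the other 8 PBS legs. That leg is also the one with the high adipocyte sum.

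The log2 difference of this ratio was -0.85 between HRS and contralateral legs (SD 0.60 over 5 mice, exact 2-sided sign-flip p = 0.062, the smallest that 5 pairs allow). Taken as unpaired, which sets aside that the legs share mice, the exact permutation p was 0.0317. Against PBS-only legs it was -0.77 (exact permutation p = 0.0476, n = 5 and 4, with the 4 legs of 2 mice taken as independent), and over these 2 permutation tests the adjusted value was 0.0476 for both. Without the m866 HRS leg the differences were -1.05 and -0.98. The ratio was chosen after the values were seen, and its level depends on which 10 genes make up the fibre list.

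**Figure D2:**
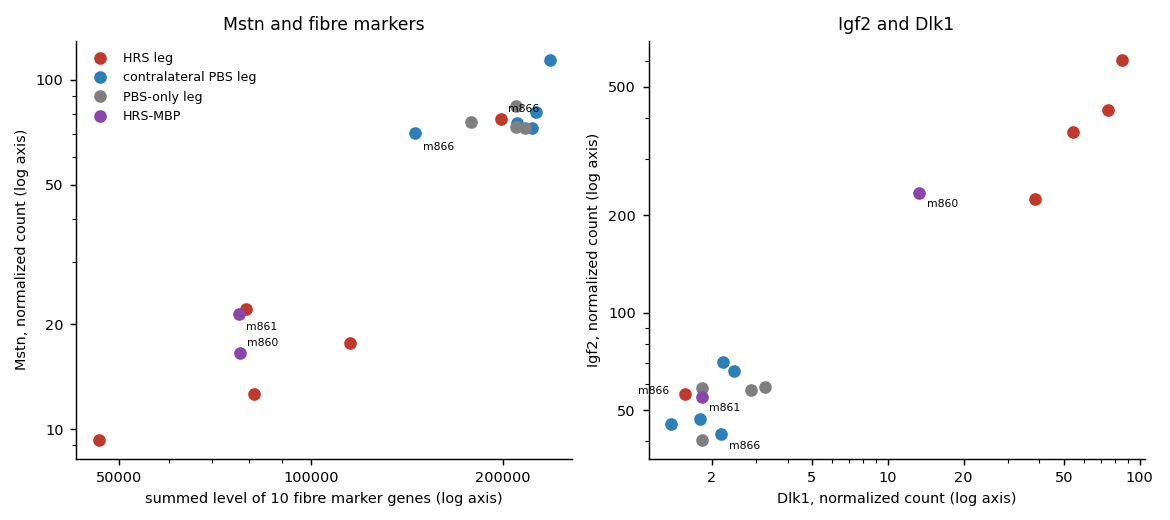
Left, *Mstn* against the summed level of 10 fibre marker genes, and right, *Igf2* against *Dlk1*, all in normalized counts on log axes, with each point a library. On the left, 4 HRS legs and both HRS-MBP libraries lie at 22.1 or less for *Mstn*; on the right, m861 and the HRS leg of m866 lie with the PBS legs.

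*Gdf11* (ENSMUSG00000025352.6, chr10:128882295-128891718, minus strand) encodes the ligand closest in sequence to myostatin, and it rose where *Mstn* fell. It read 14.4, 13.8, 14.97, 13.1 and 6.67 in the HRS legs of m862 to m866, and 6.02, 5.08, 4.20, 3.79 and 9.83 in their contralateral legs. The first 4 HRS legs stood above all PBS legs, and in m866 the order of the legs was turned. The log2 difference was 1.08 (95% interval 0.37 to 1.79, limma adjusted p = 0.0115), and 1.28 without the m866 HRS leg.

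PBS-only legs were uneven in *Gdf11*, at 7.36, 2.99, 10.4 and 2.80, and the right leg was the higher in both mice. HRS-MBP libraries lay just above them at 11.1 and 12.1. *Gdf11* rose against PBS-only legs in HRS legs (1.17, limma adjusted p = 0.0105, but 0.73 and 0.0622 with quantile normalization) and in HRS-MBP (1.11, adjusted p = 0.0486). The last call was lost without the left leg of m867 (adjusted p = 0.12), without the left leg of m868 (0.121), without m860 (0.138) and without m861 (0.174), so it rests on each of them, and 10 of its 19 alternatives ended it.

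*Inhba* (ENSMUSG00000041324.14, chr13:16011851-16031621, plus strand), the subunit of activin A, was sparse. HRS legs had 2.10, 2.91, 6.00, 4.17 and 2.62 in m862 to m866 and contralateral legs 1.22, 1.42, 3.05, 1.09 and 1.21. The HRS leg was the higher in 5 of 5 mice, m866 included, although the groups overlapped through the contralateral leg of m864. The exact sign-flip p was 0.062, the smallest that 5 mice allow.

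For *Inhba* the log2 difference was 0.95 (95% interval 0.27 to 1.62, limma adjusted p = 0.0181), and 1.02 without the m866 HRS leg; without the HRS leg of m864 it was 0.76 at an adjusted p of 0.0543, and with quantile normalization 0.52 at 0.147. PBS-only legs spanned 0.728 to 3.03, and the difference from them was 0.92 (adjusted p = 0.0280). That call was lost on leaving out the HRS leg of m864 (adjusted p = 0.0750) or m865 (0.0605), the left leg of m867 (0.109) or m868 (0.0620), and with 1 averaged value per PBS-only mouse (0.0688), the median ratio (0.0553) or quantile normalization (0.42, adjusted p = 0.260). HRS-MBP had 2.46 and 1.16, and its difference from PBS-only legs was 0.12 (95% interval -0.80 to 1.05, adjusted p = 0.823).

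*Acvr2b* (ENSMUSG00000061393.14, chr9:119402118-119434995, plus strand), a type II receptor for these ligands, did not pass in any of the 5 comparisons as deposited, and its calls depended on the scaling. It read 1.78, 1.35, 0.768, 1.42 and 2.99 in HRS legs of m862 to m866 and 3.04, 2.29, 1.48, 1.85 and 1.75 in the contralateral legs. The HRS leg was the lower in 4 mice and the higher in m866. The log2 difference was -0.31 (95% interval -0.80 to 0.18, limma adjusted p = 0.258), and without the m866 HRS leg it was -0.50 with an adjusted p of 0.0363. With libraries scaled to the same total it was 0.01, and with quantile normalization it was -0.68 and passed (adjusted p = 0.0314). Against PBS-only legs the HRS difference was -0.25 (adjusted p = 0.385), 0.04 with same-total scaling and -0.71 with quantile normalization (adjusted p = 0.0340). The antisense Gm47320 overlaps the gene and reached 50.0% of its level in 1 library, and whether counting used strand was not stated.

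*Acvr2b* had its lowest group mean in HRS-MBP, at 1.10 and 0.890, below PBS-only legs at 1.99, 1.94, 1.58 and 2.28. These groups did not overlap, with a log2 difference of -0.71 (95% interval -1.38 to -0.04, limma adjusted p = 0.0660). This difference passed under 3 alternatives: quantile normalization (-1.19, adjusted p = 0.00915), the median ratio (-0.76, adjusted p = 0.0409) and a fit of only the 2 groups compared (adjusted p = 0.0265).

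*Fst* (ENSMUSG00000021765.9, chr13:114452290-114458951, minus strand) encodes follistatin, the secreted inhibitor of myostatin and activins. It read 17.7, 22.6, 24.2, 25.2 and 8.82 in HRS legs of m862 to m866 and 7.50, 10.5, 5.77, 9.20 and 16.2 in contralateral legs. The first 4 HRS legs were above every PBS leg, and in m866 the PBS leg was the higher. The log2 difference was 0.96 (95% interval 0.27 to 1.65, limma adjusted p = 0.0191), and 1.21 without the m866 HRS leg.

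The rise of *Fst* between the legs was sensitive to single libraries. Its adjusted p was 0.0504 without the HRS leg of m865, 0.0542 without the contralateral leg of m864, 0.0751 with the mouse as a block, and 0.0564 with quantile normalization (0.69). Leaving out both legs of m866 gave 1.41 (adjusted p = 0.000246), an alternative chosen after seeing the data. Against PBS-only legs, which had 8.75, 4.04, 12.1 and 10.4, *Fst* rose by 1.12 (adjusted p = 0.0115), and without the left leg of m867 the adjusted p was 0.0504. HRS-MBP had 13.3 and 11.2, the second inside the PBS-only range, and did not pass (0.54, 95% interval -0.41 to 1.49).

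Other genes of the activin and myostatin pathway were taken from a list of 25, of which 24 were in the table and 21 were tested. Between the legs 6 rose, 7 fell and 8 did not pass, where 35.1% of all genes rose and 25.9% fell, with a median log2 difference of -0.20. The largest rises were of *Bmp1* (1.80, limma adjusted p = 0.000475), a protease that cleaves myostatin propeptide, and of *Tgfbr2* (1.37), the type II TGF-beta receptor. Among genes that passed, the largest falls were of *Wfikkn2* (-1.82, adjusted p = 0.000186), a secreted binder of myostatin and GDF11, and of *Acvr1b* (-0.68), a type I activin receptor. *Acvr1c* had a larger difference than *Acvr1b* and did not pass (-1.44, adjusted p = 0.0513). *Wfikkn2* was 2.697 to 5.98 in 4 HRS legs, 12.9 in the m866 leg and 14.2 to 23.0 in contralateral legs. *Mstn* and *Wfikkn2* were thus both low in these 4 legs, while *Fst*, whose product also binds myostatin, was high there. *Wfikkn2* was also low in HRS-MBP (4.85 and 6.47). In the m866 HRS leg *Wfikkn2* lay below every PBS leg, unlike *Mstn*.

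**Figure D3:**
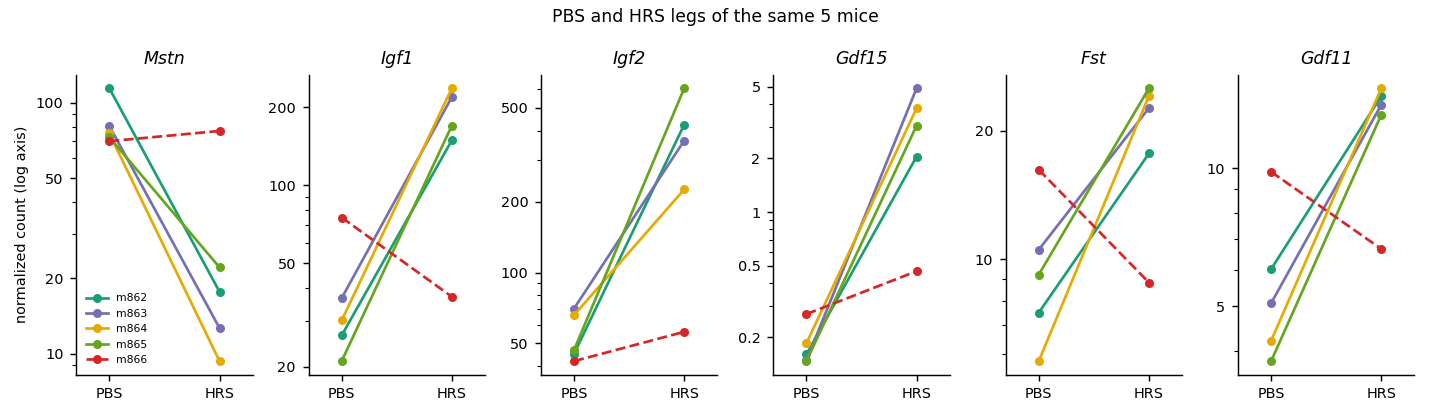
Normalized counts (log axes) of 6 genes in the PBS and HRS legs of the same 5 mice, joined by mouse. In m862 to m865 *Mstn* is lower and the other 5 genes are higher in the HRS leg; in m866 (dashed) *Gdf15* and *Igf2* are 1.74-fold and 1.33-fold higher in the HRS leg, *Mstn* differs little, and *Igf1*, *Fst* and *Gdf11* are lower.

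*Igf1* (ENSMUSG00000020053.18, chr10:87858265-87937042, plus strand), the growth factor that drives muscle protein synthesis and satellite cell growth, rose 4.28-fold. HRS legs of m862 to m866 had 149, 219, 236, 170 and 37.2, and contralateral legs 26.4, 36.7, 30.1, 20.998 and 75.0. In m862 to m865 the HRS leg was 5.65-fold, 5.96-fold, 7.85-fold and 8.08-fold higher, and in m866 the PBS leg was the higher by 2.02-fold. That PBS leg was the highest of all 9 PBS legs and is the one with the adipocyte marker sum of 3330; the part of this in its *Igf1* level was not tested.

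For *Igf1* the log2 difference was 1.99 (95% interval 1.08 to 2.90, limma adjusted p = 0.00144) and 2.46 without the m866 HRS leg, a ratio of means of 5.11-fold. PBS-only legs had 36.8, 25.0, 31.4 and 28.6, below every HRS leg including that of m866, which exceeded the highest of them by less than the spread between these legs. The difference was 2.17 (adjusted p = 0.00117). HRS-MBP had 137 and 85.1, a log2 difference of 1.82 (adjusted p = 0.0160), but the adjusted p was 0.137 without m860 and 0.0546 with 1 averaged value per PBS-only mouse.

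Macrophage and fibroblast markers rose between the legs, as *Igf1* did: all 9 and all 8 passed, where 35.1% of all genes rose. In m866 the macrophage sum was 1275 in the HRS leg against 340 in the contralateral leg, while *Igf1* was the lower in the HRS leg (37.2 against 75.0). The fibroblast sum was 15161 to 27100 in the 4 HRS legs with high *Igf1*, 2571 in the m866 leg, and 1188 to 2929 in contralateral legs. In HRS-MBP the macrophage sum was 5578 and 5214 and the fibroblast sum 13615 and 5664, for m860 and m861. No marker of either list was at 0 throughout a group, and the part of these cells in the *Igf1* result was not tested.

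*Igf2* (ENSMUSG00000048583.16, chr7:142650766-142666816, minus strand), an imprinted growth factor made by fetal and regenerating muscle, had a larger log2 difference between the legs than the other 8 genes at the pseudocount of 0.5. At a smaller pseudocount *Gdf15* exceeded it (2.99 against 2.29), as it did in the ratio of means. HRS legs of m862 to m866 had 425, 363, 225, 606 and 56.0 and contralateral legs 45.2, 70.3, 65.9, 46.9 and 42.1. The HRS leg was higher in 5 of 5 mice, by 3.42-fold to 12.9-fold in m862 to m865 and by 1.33-fold in m866, whose HRS leg lay within the PBS range. The mean was 6.20-fold higher, 7.49-fold without the m866 HRS leg.

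The log2 difference of *Igf2* was 2.29 (95% interval 1.20 to 3.37, limma adjusted p = 0.00181), and 2.84 without the m866 HRS leg. The exact sign-flip p was 0.062, the smallest that 5 mice allow. PBS-only legs had 57.9, 58.7, 40.5 and 58.9, and the difference from them was 2.27 (adjusted p = 0.00268). The antisense *Igf2os* and the same-strand Gm49394 overlap *Igf2*, and neither exceeded 1.09% of it in any library.

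The 2 HRS-MBP animals split in *Igf2*. Its level was 235 in m860 and 54.9 in m861, the first like the HRS legs and the second inside the PBS-only range. The log2 difference from PBS-only legs was 1.08 (95% interval -0.40 to 2.57, limma adjusted p = 0.194), 0.04 without m860 and 2.13 without m861. In a list of 12 genes of regenerating muscle, 8 were above all 9 PBS legs in m860, against 4 in m861, where 6 were within the PBS range and 2 below it, and 11 were higher in m860. Of all genes tested, 39.1% were above all PBS legs in m860 and 36.7% in m861, 30.5% and 31.7% were below them, and 50.2% were higher in m860. *Dlk1*, a membrane protein of regenerating muscle, was 13.3 in m860 and 1.82 in m861, and *Myh8*, the perinatal myosin heavy chain, was 432 and 34.5, the m861 values of both being within the PBS range. *Mymk*, a protein of myoblast fusion, was 24.3 in m860 and 7.23 in m861, both above the highest PBS leg at 1.43.

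In HRS legs *Dlk1* was 38.4 to 85.2 in m862 to m865 and 1.56 in m866, and in contralateral legs 1.38 to 2.45. The 5 libraries of HRS or HRS-MBP muscle with *Dlk1* of 13.3 or more thus had *Igf2* of 225 or more, and the other 2 had both in the PBS range. Of 12 genes of regenerating muscle, 8 rose, none fell and 4 did not pass between the legs, where 35.1% of all genes rose and 25.9% fell, the largest rise being of *Mymk* (3.78, limma adjusted p = 0.00118), followed by *Dlk1* (3.64). The count was the same without the m866 HRS leg, where 38.2% of all genes rose. Against PBS-only legs 3 of the 12 rose in HRS-MBP and 1 fell, beside 33.2% and 23.8% of all genes.

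*Igfbp5* (ENSMUSG00000026185.8, chr1:72857932-72874884, minus strand), the IGF binding protein abundant in muscle, followed another pattern. It read 1108, 906, 654, 759 and 869 in HRS legs of m862 to m866, 731, 1197, 667, 649 and 732 in contralateral legs, and 750 and 721 in HRS-MBP. PBS-only legs were the high group, at 1571, 1184, 1223 and 1912. Every HRS and HRS-MBP library was below every PBS-only leg, and of the contralateral legs that of m863 alone reached into their range.

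*Igfbp5* fell against PBS-only legs in HRS legs (-0.77, limma adjusted p = 0.00677) and in HRS-MBP (-0.97, adjusted p = 0.00845; 0.0583 without m861). Between the legs of the same mice the log2 difference was 0.13 (95% interval -0.30 to 0.56, adjusted p = 0.596), and 0.12 without the m866 HRS leg. The contralateral legs also lay below PBS-only legs, by 0.90 on the log2 scale (95% interval of the difference -1.36 to -0.44), with an unadjusted p of 0.000766 and an adjusted p of 0.747. These values depend on scaling. With libraries scaled to the same total the HRS difference was 0.55 between the legs (adjusted p = 0.0217) and -0.38 against PBS-only legs (adjusted p = 0.115), and quantile normalization gave 0.56 and -0.36. The HRS-MBP difference was -0.51 with same-total scaling (adjusted p = 0.109) and -0.57 with quantile normalization (adjusted p = 0.0738), both without a call.

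Of 25 other IGF axis genes tested, 7 rose, 9 fell and 9 did not pass between the legs, beside 35.1% and 25.9% of all genes. Among genes that passed, the largest rises were of *Igfbp4* (1.82, limma adjusted p = 0.00235) and *Igfbp7* (0.97), both IGF binding proteins. *Igfbp2* lay between them and did not pass (1.10, adjusted p = 0.0896). *Igfbp4* was 410 to 821 in 4 HRS legs, 124 in the m866 leg, 82.3 to 106 in 4 contralateral legs and 287 in the contralateral leg of m866, with the HRS legs in the same order as for *Igf1*. The largest falls were of *Igfals* (-2.04, adjusted p = 0.000759), which carries IGFs in serum, and *Stc2* (-1.37), an inhibitor of the protease that frees IGF from IGFBP4.

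*Gdf15* (ENSMUSG00000038508.7, chr8:70629393-70632456, minus strand), a stress-induced ligand of the TGF-beta family that acts on feeding through a brain receptor, was higher in the HRS leg of 5 of 5 mice. It read 2.04, 4.92, 3.805, 3.04 and 0.467 in HRS legs of m862 to m866 and 0.160, 0.148, 0.185, 0.147 and 0.269 in contralateral legs. PBS-only legs had 0, 0.162, 0.243 and 0.261, where 3 reads were worth 0.0853, 0.121, 0.364 and 0.196, so that 2 of these 4 values are below that floor. The groups did not overlap, and the m866 HRS leg was the lowest HRS leg and still above the 9 PBS legs.

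The mean of *Gdf15* was 15.7-fold higher than in contralateral legs, with within-mouse ratios of 12.8, 33.2, 20.6, 20.7 and 1.74. The log2 difference, compressed by the pseudocount of 0.5, was 2.09 (95% interval 1.33 to 2.85, limma adjusted p = 0.000293) and 2.48 without the m866 HRS leg; it was 1.07 at a pseudocount of 2, 2.99 at one below 0.5 and 3.795 with voom on implied reads. The exact sign-flip p was 0.062, the smallest that 5 mice allow. Against PBS-only legs it was 2.14 (adjusted p = 0.000346), and 1.08 to 4.88 over the same alternatives.

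HRS-MBP had the highest group mean of *Gdf15*, at 3.81 in m860, inside the range of the HRS legs, and 7.81 in m861, above them, a log2 difference of 3.19 from PBS-only legs (95% interval 2.14 to 4.23, limma adjusted p = 0.000103). Its size depends on how low values are treated, from 1.80 at a pseudocount of 2 to 5.93 with voom on implied reads, and the call held under all 18 alternatives. The animal with the higher *Gdf15*, m861, was the one with *Igf2* at the PBS level. Its macrophage marker sum, 5214, was close to that of m860, and its T cell marker sum was 120 against 84.0. The range of the T cell sum was 14.1 to 106 in HRS legs and 0.930 to 2.91 in the 9 PBS legs, and the part of immune cells in the *Gdf15* result was not tested.

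*Fgf21* (ENSMUSG00000030827.5, chr7:45613886-45615490, minus strand), a hormone released by stressed muscle and liver, was near the limit of detection. HRS legs of m862 to m866 had 0.0882, 0.216, 0.464, 0.498 and 0, where 3 reads were worth 0.0441, 0.0324, 0.0536, 0.0534 and 0.0935. The contralateral legs had 0.0961, 0, 0, 0 and 0.242, the PBS-only legs 0 in 3 and 0.364 in the right leg of m868, and HRS-MBP 0.326 and 0.133. The PBS-only value of 0.364 equals 3 reads in the library of lowest depth. Values above 0 were found in 4 of 5 HRS legs, 2 of 5 contralateral legs, 1 of 4 PBS-only legs and both HRS-MBP libraries. Without a filter the log2 difference between the legs was 0.37 (limma adjusted p = 0.162) and did not pass. That value is compressed by the pseudocount of 0.5, which exceeds every *Fgf21* value here. In m863 to m865 the HRS legs held the worth of 20, 26 and 28 reads and the contralateral legs 0. In m862 and m866 the contralateral leg was the higher, so the mice were split.

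Receptors of GDF15 and FGF21 and genes of the integrated stress response, which drives both hormones, were read from a list of 20, of which 18 were tested. Between the legs 6 rose, 4 fell and 8 did not pass, beside 35.1% and 25.9% of all genes. *Mthfd2* (1.67, limma adjusted p = 3.73e-05), an enzyme of mitochondrial one-carbon metabolism, and *Aldh18a1* (1.55), of proline synthesis, rose furthest. *Chac1* (-1.52), which breaks down glutathione, and *Klb* (-1.23, adjusted p = 0.0231), the co-receptor of FGF21 also expressed by adipocytes, fell furthest. *Atf4* (-0.60, adjusted p = 0.00272), a transcription factor of this response, and *Atf5* (-0.44) fell too, while *Ddit3*, *Trib3* and *Asns* did not pass. *Psat1*, *Atf3*, *Ddit4* and *Sesn2* also rose. *Atf4* was 109 to 116 in HRS legs of m862 to m865, 199 in that of m866 and 169 to 216 in contralateral legs. Against PBS-only legs it did not pass (-0.33, adjusted p = 0.0737). The part of this response in the *Gdf15* result was not tested. *Klb* was 8.54 in the contralateral leg of m866 with its high adipocyte sum, against 0.739 to 1.28 in the other contralateral legs and 0.107 to 0.841 in HRS legs.

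**Figure D4:**
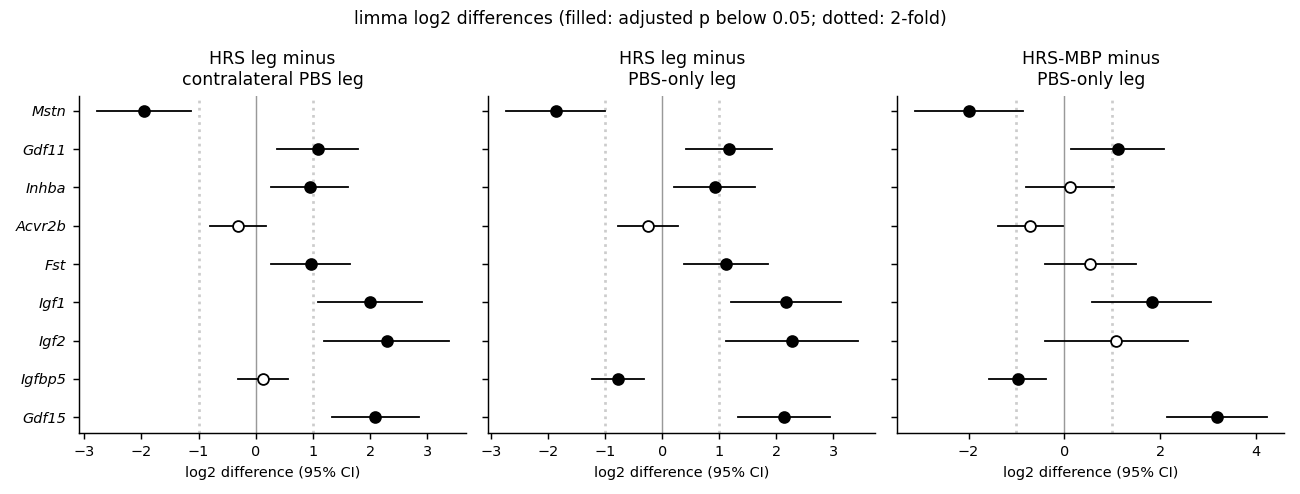
Log2 differences from limma for the 9 genes tested, with 95% intervals, for HRS legs minus contralateral PBS legs, HRS legs minus PBS-only legs, and HRS-MBP minus PBS-only legs. Filled points have an adjusted p below 0.05 and dotted lines mark 2-fold; the first and second panels share the HRS legs, and the last 2 panels share the PBS-only legs.

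The second comparison set the HRS legs against legs of mice that never received HRS. There 6 of the 9 genes rose and 2 (*Mstn* and *Igfbp5*) fell, where 38.1% of all genes rose and 22.6% fell. With same-total scaling the numbers were 6 and 1 (55.3% and 11.8% of all genes), with quantile normalization 4 and 2 (25.2% and 38.9%), and with the median ratio 5 and 2 (32% and 30.4%). Past 2-fold, 5 were higher (*Igf2*, *Igf1*, *Gdf15*, *Gdf11* and *Fst*) and *Mstn* alone was lower, against 18.9% and 5.87% of all genes. Without the m866 HRS leg the log2 differences were -2.34 for *Mstn*, 2.83 for *Igf2*, 2.64 for *Igf1*, 2.53 for *Gdf15*, 1.38 for *Fst*, 1.37 for *Gdf11*, 0.99 for *Inhba*, -0.44 for *Acvr2b* and -0.78 for *Igfbp5*, and the same 8 genes passed, beside 40.7% of all genes higher and 27.4% lower. It shares the HRS legs with the first comparison, so the 2 sets of values are not independent.

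Contralateral PBS legs were then compared with PBS-only legs. None of the 9 genes passed, and 1 of all genes did (0.00609% at an adjusted p below 0.05 and 0.00609% past 2-fold as well). With limma at an unadjusted p below 0.05, 1 of the 9 (*Igfbp5*) and 902 of all genes were counted, and no other tool was run. For *Mstn* the difference was 0.09 (95% interval -0.78 to 0.96) and for *Igf1* 0.18 (-0.79 to 1.14), intervals that do not show equal levels.

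HRS-MBP was compared with PBS-only legs and with HRS legs. Against PBS-only legs 3 genes rose (*Gdf15*, *Igf1* and *Gdf11*) and 2 fell (*Mstn* and *Igfbp5*), against 33.2% and 23.8% of all genes. Same-total scaling gave 3 and 1 (46.9% and 12.6% of all genes), quantile normalization 2 and 2 (23.4% and 38.7%) and the median ratio 2 and 3 (30.9% and 27.8%). Past 2-fold, 3 were higher and 1 was lower, against 20.7% and 10.2% of all genes. Without m860, which leaves a lone HRS-MBP library, the log2 differences were -1.81 for *Mstn*, 1.48 for *Igf1* and 1.17 for *Gdf11*. Against HRS legs none of the 9 passed, while 0.56% of all genes did and 0.463% did so past 2-fold. With limma at an unadjusted p below 0.05, *Gdf15* alone of the 9 was counted (log2 difference 1.05, 95% interval 0.04 to 2.05, adjusted p = 0.329), beside 2371 of all genes. That difference was 0.65 without the m866 HRS leg, and 0.57 without m861. For *Igf2* the difference was -1.19 (95% interval -2.63 to 0.25), and it turned on single libraries: -2.23 without m860, -0.15 without m861 and -1.74 without the m866 HRS leg, none of which passed.

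Per kilobase of annotated exon, the genes can be ranked by level. In both PBS groups the order began *Igfbp5*, *Mstn*, *Igf2*, *Igf1*, *Fst*, *Gdf11*, at 245, 28.3, 9.43, 3.08, 1.93 and 1.45 normalized counts per kb in PBS-only legs. In HRS legs it began *Igfbp5*, *Igf2*, *Igf1*, *Mstn*, at 143, 58.6, 16.4 and 10.3. Without m866 the *Mstn* mean there was 5.70, next to *Fst* at 4.88, and *Mstn* exceeded *Fst* in 3 of the 5 HRS legs. *Mstn* exceeded *Igf2* per kb in all 9 PBS legs, in 1 of 5 HRS legs (m866) and in neither HRS-MBP library. By their ranges over libraries, *Fst* and *Gdf11* overlapped in all 4 groups, *Igf2* and *Igf1* overlapped in HRS, contralateral and HRS-MBP libraries, and *Igf1* and *Mstn* overlapped in HRS legs. The ranges of *Igf1* and *Fst* also overlapped in HRS, contralateral and PBS-only legs, and those of *Igf2* and *Mstn* in HRS legs. Within each library *Igf1* exceeded *Fst*. Within libraries *Fst* exceeded *Gdf11* in 5 of 5 HRS, 5 of 5 contralateral and 4 of 4 PBS-only legs and in 1 of 2 HRS-MBP libraries, and *Igf2* exceeded *Igf1* in 5 of 5 HRS, 4 of 5 contralateral and 4 of 4 PBS-only legs and in both HRS-MBP libraries. At the low end *Acvr2b* stood above *Inhba* and *Gdf15* by mean in PBS groups, and in HRS legs *Gdf15* (1.54) stood above *Inhba* (0.557) and *Acvr2b* (0.423).

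Genes with the profile most like each member over the 16 libraries were found by the root-mean-square difference of centred log2 values, as a description. For *Mstn* they were *Gpcpd1* (0.19), *Hs3st5* (0.19) and *Lrrc14b* (0.21), where *Mstn* itself varied by 1.14 about its mean. For *Igf1* they were *Igfbp4* (0.20), *Sparc* (0.22) and *Tmem119* (0.24). For *Igf2* they were *Baiap2l1* (0.31), *Capn6* (0.31) and *Npnt* (0.33), and for *Gdf15* *Lbh*, *Slc7a7* (both 0.32) and *Dock10* (0.33). *Fst* was nearest to *Shox2* (0.22), *Serpinf1* (0.23) and *Gria3* (0.24), and *Gdf11* to *Gmds* (0.22), *Msl3l2* (0.25) and *Plpp2* (0.29). All libraries of all groups enter this measure, so differences between groups are part of it.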

How the data were processed

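RNA of hamstring muscle was measured in 16 libraries, and groups followed the mouse, treatment and side in the labels. The authors deposited normalized counts, a signal that is never negative and not on a log scale; within 0.02 steps, only 73.6% to 75.6% of low values were multiples of a common step, so reads were not taken as recovered. The step gave the worth of 1 read, the implied depth and a floor of 3 reads, which cover counting error only. The submitters' processing notes name STAR 2.7.8a, limma and mm39 (GRCm39), yet for 99.0% of 25652 genes matched by symbol the coordinates equal those of GENCODE M21 (GRCm38), with the end 1 base below the stop column; printed coordinates are read as GRCm38. Libraries were poly(A) selected with a directional kit; use of strand in counting is not given in the sources used here.

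Linear models were fitted with limma 3.58.1 (eBayes, trend in the mean) under R 4.3.3 to log2(value + 0.5) for the 16414 genes with a mean of at least 0.5, in 1 fit of the 4 groups, with Benjamini-Hochberg adjusted p over these genes. A gene passed at 0.05 and was counted past 2-fold at an absolute log2 difference above 1. Fold ratios are of mean normalized counts, and fold change on the log2 scale understates low genes. Legs of m862 to m866 pair by mouse from the labels; correlations of their deviations from group means were 0.12, 0.16, 0.10, -0.03 and -0.37, and the mouse block is an alternative. Each PBS-only leg counted as a sample, although 2 mice gave 4 legs. Exact 2-sided sign flips over the 5 mice were run for 10 genes and cannot reach 0.05. The limma fit was tested on simulated data with known changes. Named genes were the 10 members, the 2 largest rises and falls that passed in each gene list, and 3 profile neighbours per member past 2-fold in any comparison. *Myh8*, *Gm47320*, *Igf2os* and *Gm49394* were added after values were seen, as were *Acvr2a*, *Acvr1c*, *Igfbp2* and the further stress response genes. Members and lists were chosen with earlier results of these data known. Alternatives changed the pseudocount, filter, scaling, variance model, block and libraries. Columns of per-sample values left unused numbered 0.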

Additional observations from a re-analysis of the deposited data

Results flagged for a closer look

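In 30 groups of member values, 7 had 1 library far from the rest by Dixon's 95% limit, where chance gives about 1 in 20. In the HRS leg of m866, *Mstn* was 77.1 against 9.34 to 22.1 in the other HRS legs, and *Gdf11* was 6.67 against 13.1 to 14.97. Among contralateral PBS legs *Mstn* was 114 in m862 (70.2 to 80.7 elsewhere), *Inhba* 3.05 in m864 (1.09 to 1.42) and *Igfbp5* 1197 in m863 (649 to 732). In the right leg of m868, the PBS-only library of lowest depth, *Igf2* was 40.5 (57.9 to 58.9 elsewhere) and *Fgf21* 0.364 (0 elsewhere).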

How the results depend on the processing

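Values are log2 differences unless named as counts. Of 953 single-gene values under alternatives, 877 kept their direction and side of the threshold, 33 lost the call, 10 gained it and 33 turned sign, most of these between contralateral and PBS-only legs. Between the legs, *Mstn*, *Gdf15*, *Igf1*, *Igf2* and *Gdf11* passed under all 24 or 25 alternatives run (*Mstn* -2.48 to -1.55). The number of genes past 2-fold was 4 to 7 there (5 with all libraries), 4 to 7 against PBS-only legs, and 0 both between PBS groups and for HRS-MBP against HRS. On leaving out 1 library, 3032 to 4855 of all 16414 genes were past 2-fold between the legs, and 3387 to 5103 for HRS against PBS-only legs. For the other alternatives the share of all genes is not given.

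With the mouse as a replicate block (5 pairs of legs), 5 genes were past 2-fold, *Fst* alone lost its call (0.96, limma adjusted p = 0.0751), and no other call changed. With the block and both legs of m866 left out, chosen after seeing the data, 6 were past 2-fold. The share of all genes past 2-fold is not given for these fits, so the counts are not particular to the members.

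Scaling to the same total moved the median of all genes to 0.45, 0.50 and 0.53 (HRS against contralateral, HRS and HRS-MBP against PBS-only) and quantile normalization to -0.16, -0.16 and -0.23. Same-total scaling turned *Acvr2b* to 0.0054 (contralateral) and 0.041 (PBS-only) in HRS legs, and *Gdf11* to 0.0044 in HRS-MBP against HRS; the median ratio gave 0.0030 for the latter. Quantile normalization turned *Acvr2b* (-0.030) and *Gdf15* (-0.025) between PBS groups and *Inhba* (-0.40) in HRS-MBP against PBS-only, and ended the calls of *Fst* (0.69) and *Inhba* (0.52) between the legs. Voom turned *Inhba* between PBS groups (0.053). The cause was not tested.

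Leaving out 1 library at a time, differences between PBS groups ran from -0.032 to 0.14 for *Mstn*, -0.15 to 0.34 for *Fst*, -0.27 to 0.24 for *Inhba*, -0.066 to 0.14 for *Acvr2b*, -0.17 to 0.41 for *Gdf11*, -0.082 to 0.12 for *Gdf15*, -0.11 to 0.35 for *Igf1* and -0.14 to 0.069 for *Igf2*. In HRS-MBP they ran from -0.30 to 0.54 for *Inhba* against PBS-only, and from -0.40 to 0.35 for *Mstn* and -0.26 to 0.013 for *Gdf11* against HRS. A lone library of HRS-MBP was assumed to vary like the other groups. Low counts limit *Fgf21* and the PBS levels of *Gdf15*, and 2 animals per group limit HRS-MBP and PBS-only.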
